A study of Mus musculus with 2 samples.

Results

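Smooth-muscle-rich spots were examined in spatial transcriptomes of mouse lung, with 1 section from a control mouse and 1 section from a mouse with breast cancer metastases in the lung. The control mouse was untreated, and its strain, sex and age are not given in the sources used here. The metastatic lung came from a model in which female Balb/c mice, 6 to 8 weeks old, received 4T1 mammary carcinoma cells in the mammary fat pad and were examined 21 to 23 days later. Fresh-frozen sections were read on a Visium slide, whose spots lie 100 µm apart and each collect the RNA of a small region that can hold several cells. The muscle-rich spots were chosen by their own transcripts. Among spots over tissue with at least 1000 counts, each spot was scored by the mean natural log of 1 plus its counts per 10000 of Myh11, Tagln, Acta2 and Cnn1, and the top 10% of each section were taken. In the control section, the 100 spots with the most Myl7, Myh6 and Sln, genes of cardiac muscle, were left out first. The chosen spots were then divided at their section's median level of Cyp2f2, a cytochrome P450 enzyme of club cells in the airway lining, into airway-type spots above it and vessel-type spots at or below it. This gave 286 muscle-rich spots of 2998 spots over tissue, 176 in the control section (88 airway-type and 88 vessel-type) and 110 in the metastatic section (55 and 55). The remaining 1585 control and 994 metastatic spots are called other spots.

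Smooth muscle surrounds the conducting airways and the pulmonary arteries and veins, and its tone sets their width. Its cells contract when calcium, acting through calmodulin and myosin light chain kinase, lets smooth muscle myosin pull on actin, with calponin, transgelin and tropomyosin bound along the filaments. Airways and arteries run side by side in the lung within a shared sheath, so a spot on an airway often reaches a vessel, the sheath or the alveoli around it. Many contractile genes carry a CArG box, the sequence bound by serum response factor, in their promoters.

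Promoter sequence is shown for Myl9, the regulatory light chain of smooth muscle myosin, and Actc1, the actin named for cardiac muscle. Neither was used to choose the spots, and both were far more abundant in them than in other spots. In the control section the other spots leave out the cardiac spots, which also hold Actc1. The same stretch is shown for Acta2 (smooth muscle alpha-actin) and Cnn1 (calponin 1), which were used. Each line gives the 250 bases before the start site, 5′ to 3′ on the gene's strand, from RefSeq on GRCm38.p6, with a CArG box in capitals. Myl9 is at chr2:156775214-156775463 (plus strand), Actc1 at chr2:114052876-114053125 (minus strand), Acta2 at chr19:34255374-34255623 (minus strand) and Cnn1 at chr9:22099003-22099252 (plus strand).
Myl9: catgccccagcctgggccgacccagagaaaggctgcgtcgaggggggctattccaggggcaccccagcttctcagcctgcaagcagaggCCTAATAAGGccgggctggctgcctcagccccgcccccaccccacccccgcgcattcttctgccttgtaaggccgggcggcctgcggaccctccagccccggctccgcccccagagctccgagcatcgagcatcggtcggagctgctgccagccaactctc
Actc1: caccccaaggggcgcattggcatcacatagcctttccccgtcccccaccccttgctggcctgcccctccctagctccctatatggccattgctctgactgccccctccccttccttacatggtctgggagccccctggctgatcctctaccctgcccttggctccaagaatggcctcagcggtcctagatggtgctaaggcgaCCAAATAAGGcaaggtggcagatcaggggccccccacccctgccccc
Acta2: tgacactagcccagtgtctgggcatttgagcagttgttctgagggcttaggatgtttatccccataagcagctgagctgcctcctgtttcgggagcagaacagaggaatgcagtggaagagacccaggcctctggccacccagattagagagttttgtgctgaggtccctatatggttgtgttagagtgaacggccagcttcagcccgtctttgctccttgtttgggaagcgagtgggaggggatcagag
Cnn1: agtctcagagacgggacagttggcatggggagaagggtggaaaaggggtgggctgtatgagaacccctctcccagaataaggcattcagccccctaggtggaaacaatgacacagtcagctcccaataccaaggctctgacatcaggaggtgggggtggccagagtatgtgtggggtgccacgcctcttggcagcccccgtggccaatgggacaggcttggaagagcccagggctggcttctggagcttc
The box began 161 bases before the start site of Myl9 and 47 bases before that of Actc1. Both marked copies read CC, then only A or T, then GG. The box was not found in the windows of Acta2 and Cnn1, which says only that these letters are not there. Stretches with a C or G inside, such as ccctatatgg and ccttgtttgg in Acta2, were not marked. Searched on both strands over 300 bases, 250 before and 50 after the start site, the CArG box was in 535 of 32851 promoters (1.63%). Of 28 genes, the 4 used to choose the spots and 24 other contractile genes, 24 had a promoter in the table and 5 of those held the box (20.8%), namely Myl9, Cnn2, Myl6, Vcl and Ldb3. A gene counted as holding the box if any of its promoters did, as with Ldb3, so 20.8% and 1.63% are in different units. Myh11, Tagln and Actg2 were among the genes not matched.

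The 4 genes of the score set the spots apart by construction, so their values are a description. Levels are summed counts per 10000 over the spots of a group, with a library size that leaves out 12 very abundant genes (Scgb1a1, Scgb3a1, Scgb3a2, Bpifa1 and 8 haemoglobin genes). Every interval is an exact 95% interval that covers counting error only. Acta2 stood at 24.0 in airway-type, 22.3 in vessel-type and 1.06 in other spots of the control section, and at 8.52, 7.14 and 0.583 in the metastatic section. Myh11, the smooth muscle myosin heavy chain, stood at 10.9, 7.50 and 0.650 in the control section and at 3.21, 2.55 and 0.306 in the metastatic section. Tagln, transgelin, stood at 6.40, 5.08 and 0.521 and at 3.03, 2.46 and 0.392 in the same order. These 3 genes differed little between airway-type and vessel-type spots beside the gap to other spots. Cnn1 was less even, at 18.2, 6.33 and 0.616 in the control section and at 2.57, 1.02 and 0.169 in the metastatic section.

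The score ran from 1.21 through a median of 1.81 to 3.85 in the control spots and from 0.65 through 0.91 to 2.63 in the metastatic spots. No gap lay at the edge. In the control section the 5th lowest muscle-rich spot scored 1.22 and the 5th highest other spot 1.18, and in the metastatic section these were 0.66 and 0.62. The Cyp2f2 division was as gradual, at 23.8 counts per 10000 of all counts in the control section and between 18.0 and 19.5 in the metastatic section. Only 22 of the 110 metastatic spots reached the lowest control score, so the same rank took in spots with less RNA of the score genes in the metastatic section. Fewer cells of a type and less RNA per cell cannot be told apart in such spots.

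Control muscle-rich spots held a median of 10108 counts (1316 to 46629) and metastatic ones 13178 (4911 to 46800), of 20329126 and 14657881 counts in the sections. Scgb1a1, the secretoglobin of club cells, took 40.8% and 43.3% of the counts in airway-type spots and 11.8% and 10.3% in vessel-type spots of the control and metastatic sections, which is why such genes were left out of the library size. With all counts as library size, the median vessel-type over airway-type log2 ratio moved from 0.08 to 0.66 in the control section and from 0.07 to 0.70 in the metastatic section. With 1 section per condition there was no replicate, so no difference was tested, and spots are not replicates. Section, animal, library and sampled anatomy cannot be told apart. A gene is called higher where it was past 1.5-fold in both sections or, between the sections, in both spot types.

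The muscle-rich spots were clustered in the tissue. In the control section they formed 35 patches of touching spots, the largest of 39 spots, and 137 of 176 spots were in the 7 patches of 4 or more. In the metastatic section they formed 41 patches, the largest of 16 spots, and 60 of 110 spots were in 8 patches of 4 or more. The types were partly intermingled, with both in 11 of 15 control patches and 10 of 20 metastatic patches of 2 or more spots. Of touching pairs of muscle-rich spots, 137 of 230 in the control and 66 of 97 in the metastatic section were of the same type. Had no cardiac spot been left out, 16 of 186 chosen control spots would have been cardiac ones.

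**Figure D1:**
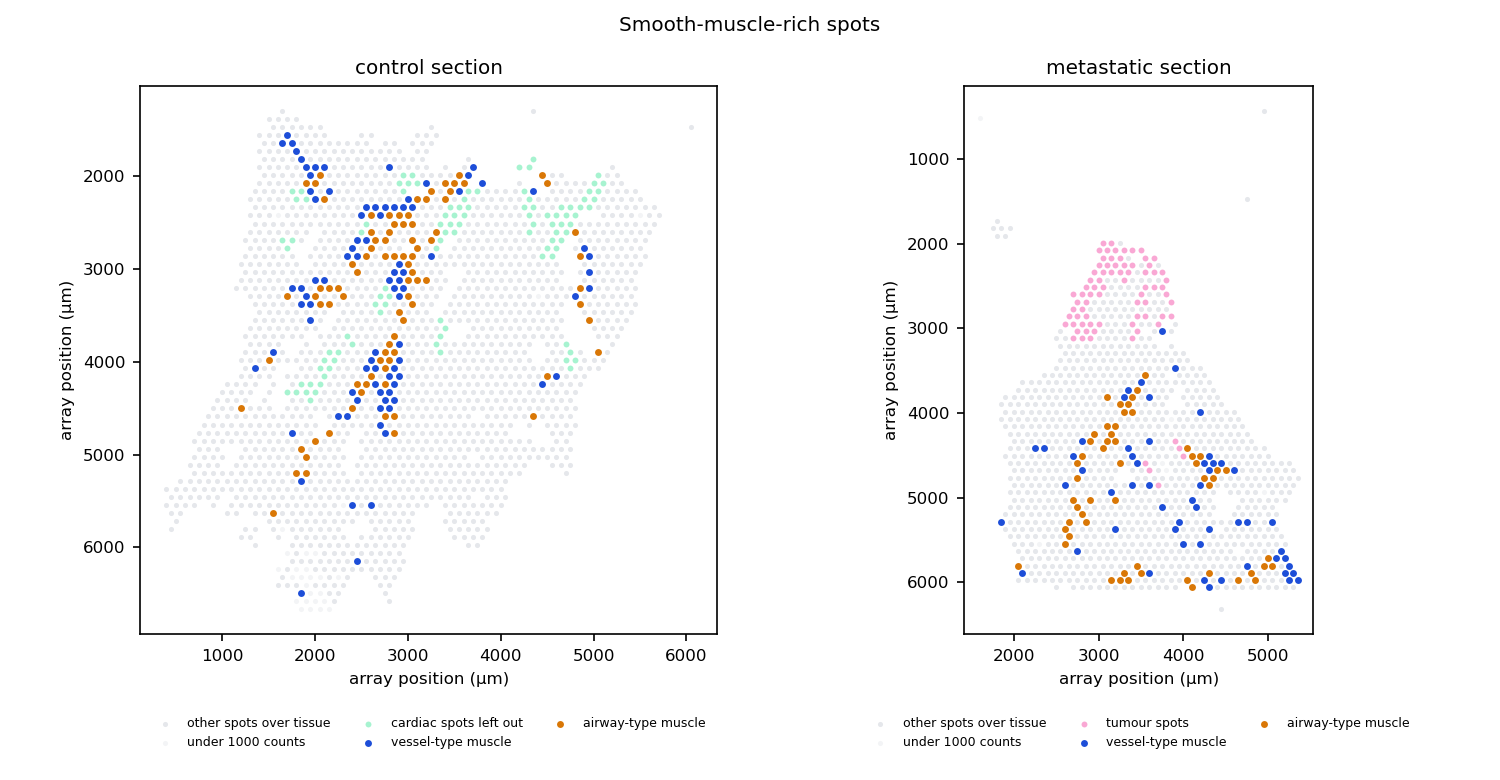
Position of spots on the array in µm for the control and the metastatic section, coloured by class (airway-type, vessel-type, other, tumour spots, and the cardiac spots that were left out). The 176 control spots form larger patches, up to 39 spots, than the 110 metastatic spots, up to 16, and both types occur side by side.

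The label was checked with genes outside the score. Of 24 contractile genes, 20 had at least 50 counts over the kept spots of each section, and 12 of those were higher in muscle-rich than in other spots of both sections (Myl9, Actg2, Smtn, Lmod1, Synpo2, Tpm2, Des, Flna, Csrp1, Ppp1r12b, Pgm5 and Jph2) while none was lower. Over all 11890 genes with such counts, 646 (5.43%) were higher and 252 (2.12%) were lower. The median log2 ratio was 1.12 in the control and 0.86 in the metastatic section for the contractile genes, against -0.14 and 0.02 over all genes. The spots were chosen by genes of the same tissue, so these counts describe the choice. The summed contractile level was 135 counts per 10000 in muscle-rich and 56.5 in other control spots, and 67.6 and 42.1 in the metastatic section. Markers of skeletal muscle summed to only 0.717 and 0.0993 in control and metastatic muscle-rich spots, with Myh1 and Myh4 at 0. Markers of cartilage summed to 0.0568 and 0.0361, with Acan and Matn1 at 0. Cardiac genes summed to 15.9 in control and 2.99 in metastatic muscle-rich spots, against 10.1 and 0.432 in other spots, but Actc1, described below, made up 1076 of the 2238 control and 277 of the 331 metastatic counts in muscle-rich spots. Of the 11 cardiac genes, 3 were at 0 in the metastatic ones (Sln, Mb and Nppa).

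Myl9 was abundant in the muscle-rich spots. Its level per spot had a median of 22.5 (0 to 95.9) counts per 10000 in control airway-type and 15.3 (0 to 51.3) in control vessel-type spots, and of 4.83 (0 to 29.6) and 3.80 (0 to 23.9) in the metastatic section, with the lowest and highest spot in parentheses. The ranges overlapped between types and sections. Summed Myl9 was 10.5-fold (9.98 to 11) the level of other spots in the control section and 5.69-fold (5.17 to 6.25) in the metastatic section. Actg2, the gamma-actin of smooth muscle, was scarcer with a contrast of 14.5-fold (12.4 to 17.1) and 8.42-fold (6.28 to 11.3). Tpm2, beta-tropomyosin, was 10.4-fold and 5.62-fold higher, and Lmod1, leiomodin, which nucleates actin filaments, 11.5-fold and 7.95-fold. All 4 had a smaller contrast in the metastatic section. Des, the intermediate filament protein desmin, was 6.64-fold and 2.87-fold higher, and Smtn, smoothelin, 3.57-fold and 2.14-fold. The widely expressed members were flatter, with Myl6, a myosin light chain that other cells share, at 1.65 and 1.3 times the other spots and Cnn2, the calponin of many cell types, at 0.736 and 1.07.

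Actc1 had a muscle pattern as well. Its level per spot had a median of 6.73 (0 to 55.8) counts per 10000 in control airway-type, 2.25 (0 to 36.0) in control vessel-type, 2.38 (0 to 14.2) in metastatic airway-type and 0.562 (0 to 9.77) in metastatic vessel-type spots. It had a count in 82 of 88, 62 of 88, 42 of 55 and 29 of 55 of them. Airway-type spots thus held it more often in each section, with overlapping ranges. Summed Actc1 was 7.87-fold (7.25 to 8.53) the level of other spots in the control and 9.42-fold (7.94 to 11.2) in the metastatic section. The metastatic section held 4 counts of the atrial light chain Myl7 in all, against 19936 in the control section, of which 335 were in muscle-rich spots. Of the metastatic section's 549 Actc1 counts, 277 lay in muscle-rich spots (50.5%), beside 50.4% of Myh11 and 47.7% of Actg2. In the control section, whose cardiac spots also hold Actc1, the share was 16.5%. Per 100 counts of the 4 score genes, the muscle-rich spots held 15.1 Actc1 counts in the control and 16.4 in the metastatic section. Myh11 and the other score genes chose these spots, so the comparisons of Actc1 with them are a description.

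**Figure D2:**
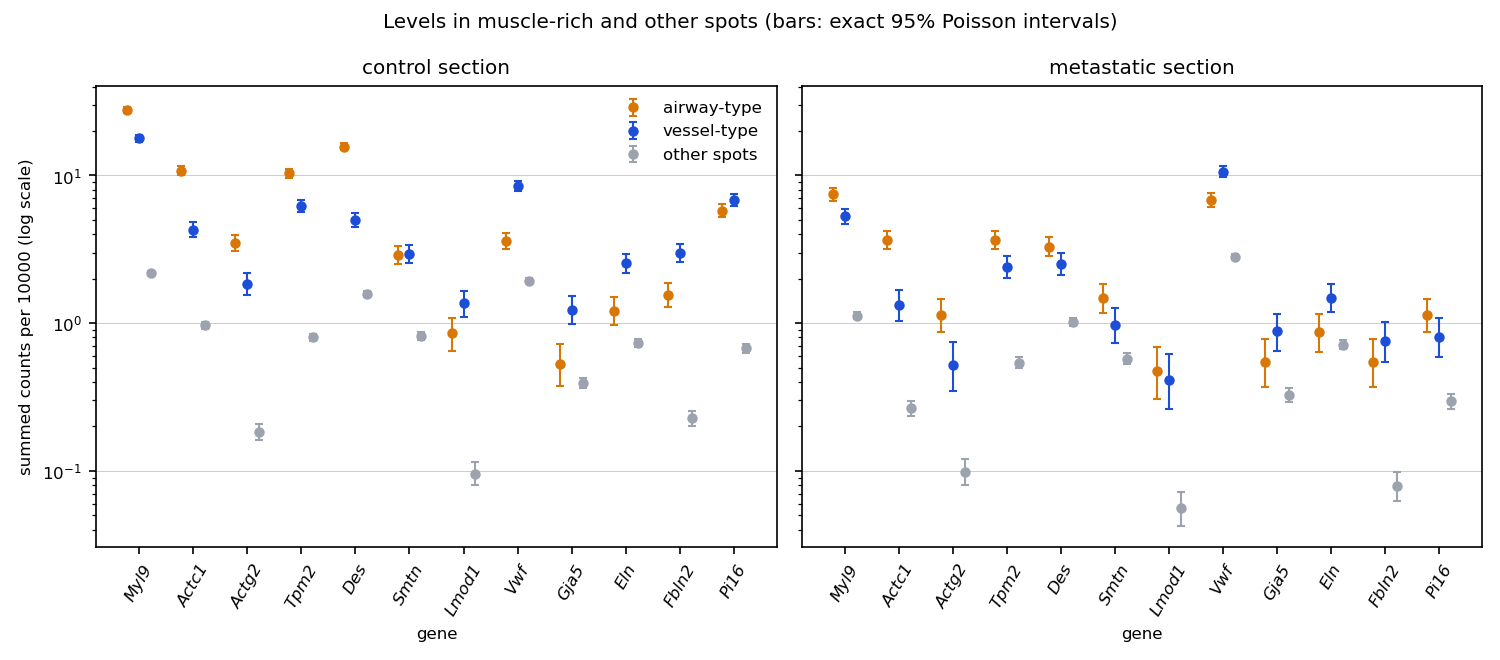
Summed counts per 10000 (log scale) of 12 genes in airway-type, vessel-type and other spots of each section, with exact 95% Poisson intervals as bars. Muscle-rich spots of both types lie above other spots for all 12 genes, Actc1, Actg2 and Tpm2 are past 1.5-fold on the airway-type side in both sections, and Vwf, Gja5 and Eln on the vessel-type side.

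Few regulators of the contractile genes and few tone genes were called, near the share over all 11890 genes (5.43% higher and 2.12% lower). Their median log2 ratios in the control and metastatic sections were -0.23 and 0.11 for regulators and -0.36 and 0.11 for tone genes. Over all genes they were -0.14 and 0.02. Of 13 measured transcription factors and co-factors, only Heyl, a Notch target of mural cells, was higher in both sections (1.94-fold and 1.75-fold) and none was lower. Of 18 measured tone genes none was higher, and the cation channel gene Trpc6 was lower, at 0.385 and 0.297 times the other spots, on 15 and 6 counts in the muscle-rich spots. Of 17 measured genes of vascular muscle and pericytes, 5 were higher (Cspg4, Kcnj8, Abcc9, Heyl and Mustn1) and Trpc6 was lower. Mustn1, a small nuclear protein of muscle, was 3.80-fold (3.37 to 4.28) and 3.90-fold (3.29 to 4.61) higher. Of 5 measured genes listed for airway muscle, 3 were higher (Lgr6, a receptor of R-spondins, Hhip, a decoy receptor of hedgehog ligands, and Actg2). Of 22 genes of TGF-beta, BMP and Notch signalling, 5 were higher (Tgfb3, Id2, Id4, Ccn1 and Ccn2) and none was lower.

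Genes of the fibrous sheath accompanied the muscle. Of 12 adventitial fibroblast genes, 6 were higher than in other spots of both sections (Pi16, Dcn, Gsn, Mfap5, Serpinf1 and Col14a1) and none was lower, with median log2 ratios of 1.27 and 0.69. Pi16, a marker of adventitial fibroblasts, was 9.32-fold (8.49 to 10.2) higher in the control and 3.30-fold (2.62 to 4.12) in the metastatic section, and Dcn, the collagen-binding proteoglycan decorin, 8.00-fold and 3.43-fold. Of 14 elastic fibre genes, 6 were higher (Eln, Fbln1, Fbln2, Mfap5, Loxl1 and Ltbp4) and none was lower. Fbln2, fibulin 2, was 10.0-fold (8.53 to 11.8) and 8.22-fold (5.90 to 11.4) higher, and Fbln1 5.81-fold and 3.85-fold. Cytl1, a small secreted protein, headed the genes ranked outside the score, at 15.7-fold (14.0 to 17.6) and 8.69-fold (7.18 to 10.5), with 53.8% and 48.4% of its counts in the muscle-rich spots. Rbp4, the retinol carrier, was 3.66-fold and 3.19-fold higher, and Scgb3a1, a secretoglobin of proximal airways, 4.68-fold and 3.50-fold. The immediate early genes Fos, Egr1, Atf3 and Nr4a1, 4 of 9 measured, were higher, and 4 of 5 mesothelial genes (Msln, Upk3b, Lrrn4 and Upk1b) were lower.

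The tissue around the muscle differed between the sections. All 10 ciliated cell genes and 9 of 11 club cell genes were higher in muscle-rich than in other spots of both sections. No gene of general endothelium (6), capillaries (9), alveolar type I cells (7) or alveolar type II cells (9) was higher or lower in both. In the control section the median log2 ratio was -1.41 for type I, -0.83 for type II and -1.21 for capillary genes, and in the metastatic section it was -0.13, -0.08 and -0.25. Ager, a receptor on type I cells, stood at 14.2 counts per 10000 in muscle-rich and 35.0 in other control spots, and at 18.2 and 19.2 in the metastatic section. Summed, metastatic muscle-rich spots thus held alveolar RNA at about the level of their other spots, which include tumour spots. Control ones held less than theirs. Per spot, the median sum of type I genes was 37.4 counts per 10000 in metastatic muscle-rich and 49.2 in other spots. In the control section it was 22.8 and 69.4. Type II (233 and 275) and capillary genes (17.9 and 24.6) were also lower in metastatic muscle-rich spots by this median. The part of alveolar RNA in the smaller muscle contrasts of the metastatic section was not tested.

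Genes of other cell types were seldom higher in the muscle-rich spots, as were genes at large (5.43% higher and 2.12% lower over all 11890). Of 7 measured neutrophil genes Ltf was higher and none lower. Of 10 genes of macrophages and monocytes, 5 of alveolar macrophages, 7 of T and NK cells and 7 of B and plasma cells none was higher, and Ly6c2, Marco, Cd8a, Nkg7 and Ms4a1 were lower. Of 2 Schwann cell and 5 red blood cell genes none was on either side, and no mast cell gene had enough counts. Of 12 genes of inflammation Hp, haptoglobin, was higher and Saa3 and Ch25h were lower, and of 4 hedgehog pathway genes Hhip was higher. Between the sections, 3 of 11 inflammation genes were higher in the metastatic muscle-rich spots of both types (Saa3, Ccl8 and Socs3) and Timp1 in the control ones. Over all 7961 genes, 5.87% were on the metastatic and 5.26% on the control side. Summed, the inflammation list stood at 1.21 times its control level in muscle-rich and 1.59 times in other spots.

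Between the spot types, 260 of 4304 genes with at least 50 counts over the muscle-rich spots of each section were higher in vessel-type spots (6.04%) and 239 in airway-type spots (5.55%). With all counts as library size the split was 1863 against 93, so directions are relative to the other genes. The airway-type side held more of the airway lining. Its gene Cyp2f2, which divided the spots, stood at 74.4 against 16.8 counts per 10000 in the control and 62.7 against 10.8 in the metastatic section. All 8 measured ciliated cell genes and 8 of 9 club cell genes were higher in airway-type spots. Tmem212, a gene of ciliated cells, had vessel-type over airway-type ratios of 0.143 (0.102 to 0.196) and 0.109 (0.0577 to 0.189), and Foxj1, the main regulator of motile cilia, 0.199 and 0.138. The secretoglobin Scgb3a2 had ratios of 0.186 and 0.157. The other genes ranked highest on this side were Cyp2s1, Ccdc153, Fam183b, Scgb1a1, Riiad1, Dynlrb2, Vpreb3, Calml4, Tspan1 and Aldh1a7. Vessel-type spots held airway lining too. Per spot, the median sum of club cell genes was 1008 counts per 10000 in vessel-type and 435 in other control spots. In the metastatic section it was 1259 and 570. Summed over spots, the list stood at 0.806 and 0.575 times the other spots.

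Contractile genes, like most genes, were mostly on neither side. Over all 4304 genes, 6.04% were higher in vessel-type and 5.55% in airway-type spots. Of 16 measured, 14 were on neither side, 2 were higher in airway-type spots of both sections (Actg2 and Tpm2) and none in vessel-type spots, with list medians of -0.13 and 0.02 against 0.08 and 0.07 over all genes. Actg2 had a median level per spot of 2.61 (0 to 15.6) counts per 10000 in airway-type and 1.35 (0 to 12) in vessel-type control spots, and of 0.587 (0 to 4.38) and 0 (0 to 3.25) in the metastatic section. The list summed to 0.782 (0.760 to 0.805) in vessel-type over airway-type control spots and 0.973 (0.93 to 1.02) in the metastatic section. The spot ranges of Actg2 overlapped. Its vessel-type over airway-type ratio was 0.530 (0.425 to 0.659) and 0.457 (0.284 to 0.720), and its log2 ratio stayed below 0 with all counts as library size (-0.33 and -0.48). Myl9 had ratios of 0.643 (0.599 to 0.691) and 0.712 (0.611 to 0.829), but log2 ratios of -0.06 and 0.15 with all counts. Tpm2 had ratios of 0.599 and 0.658, but log2 ratios of -0.16 and 0.04 with all counts. The direction of both genes in the metastatic section therefore depends on the library size. Cald1, caldesmon, had log2 ratios of 0.92 and 0.48, Cnn2 of 0.49 and 0.46, Vcl, vinculin, of 0.43 and 0.66 and Ppp1r12b of 0.18 and 0.73, all towards the vessel-type side. Des had ratios of 0.318 (0.281 to 0.359) and 0.763 (0.608 to 0.957), with log2 ratios of -1.07 and 0.25 with all counts. Lmod1 had ratios of 1.60 (1.14 to 2.24) and 0.878 (0.478 to 1.60). Itpr1, a calcium release channel, was the only one of 8 measured tone genes higher in airway-type spots, with ratios of 0.590 (0.383 to 0.896) and 0.595 (0.343 to 1.01).

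Actc1 had vessel-type over airway-type ratios of 0.397 (0.346 to 0.454) and 0.362 (0.273 to 0.474). Its log2 ratio was -1.33 in the control and -1.46 in the metastatic section, and -0.75 and -0.82 with all counts as library size. When spots with any count of Bpifa1, Muc5b, Cfd or Myl7, genes of proximal airway, fat and heart, were left out, it was -0.01 in the 49 control spots that remained and -1.57 in the 103 metastatic spots. The excess of Actc1 in airway-type spots was thus absent from those control spots and as large in the metastatic ones. The control patch of 9 spots with the most Bpifa1, a secreted protein of the proximal airway (134 counts per 10000), had Actc1 at 16.8, Actg2 at 5.71 and Vwf at 1.35. The largest control patch had Actc1 at 4.89, Actg2 at 2.00 and Vwf at 6.69. In the metastatic section a patch of 6 airway-type spots had Actc1 at 5.32 and Vwf at 2.36, and a patch of 11 spots, 8 of them vessel-type, had 2.28 and 10.5. Neither of these held a count of Bpifa1, Muc5b or Cfd. Actc1 and Vwf did not go in opposite directions over all patches. A metastatic patch of 10 spots, 7 of them airway-type, had Actc1 at 5.42 and Vwf at 11.8. A metastatic patch of 4 airway-type spots had 3.18 and 11.1, and a control patch of 21 spots had 11.7 and 9.02.

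**Figure D3:**
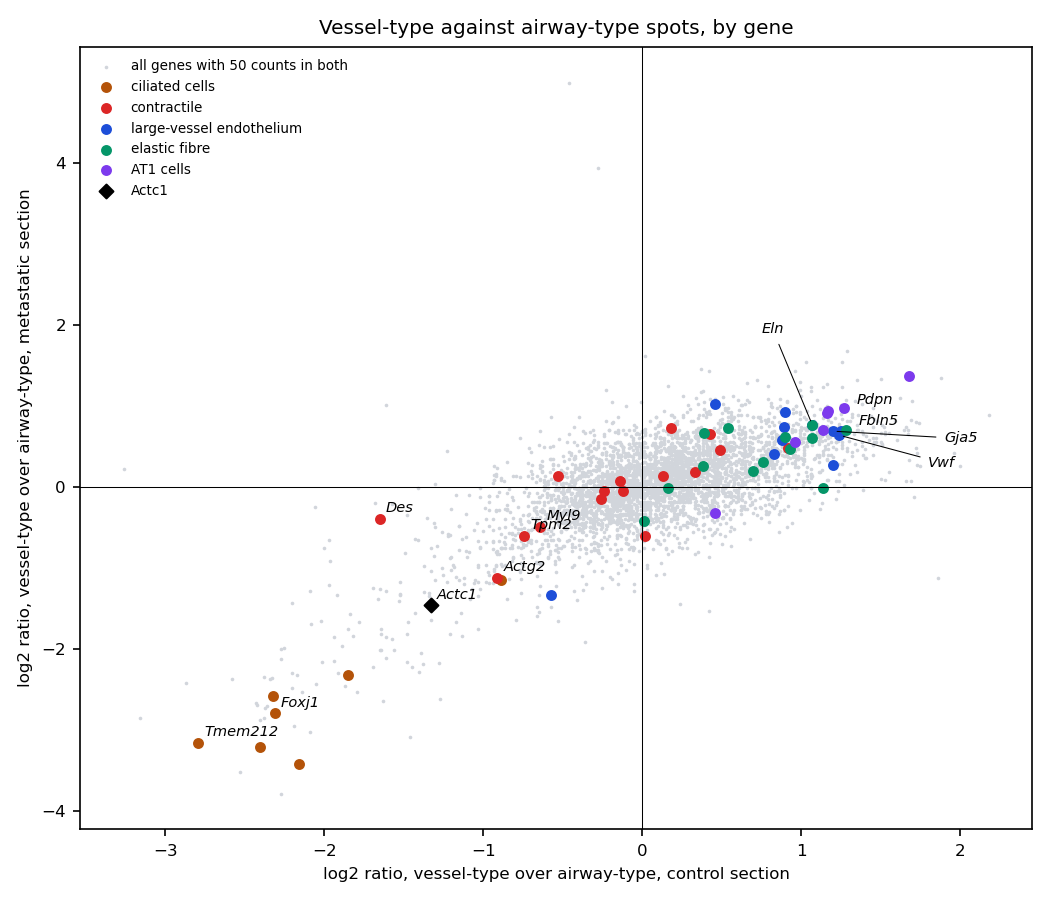
Log2 ratio of vessel-type over airway-type spots for each of 4304 genes, with the control section on the horizontal and the metastatic section on the vertical axis and gene lists coloured. Most ciliated cell genes lie at the lower left, Actc1 and Actg2 lie between them and the centre, and Vwf, Gja5 and Eln lie at the upper right.

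The vessel-type spots held more endothelium and elastic wall. Of 11 measured genes of arteries and veins, 6 were higher there in both sections (Vwf, Gja5, Gja4, Sox17, Ephb4 and Eln) and none in airway-type spots. Vwf, von Willebrand factor, had a median level per spot of 6.84 (0 to 42.5) counts per 10000 in vessel-type and 2.07 (0 to 18.0) in airway-type control spots, and of 9.07 (0 to 48.3) and 3.11 (0 to 33.9) in the metastatic section. The ranges overlapped, and 58 of 88 airway-type control spots held a Vwf count against 75 of 88 vessel-type ones. Its vessel-type over airway-type ratio was 2.37 (2.04 to 2.75) and 1.56 (1.36 to 1.77). Gja5, the connexin of arterial endothelium, had ratios of 2.32 (1.56 to 3.49) and 1.62 (1.01 to 2.64), and Eln, elastin, 2.11 (1.62 to 2.76) and 1.72 (1.19 to 2.50). All 3 pointed the same way in both sections. In the 49 control spots without Bpifa1, Muc5b, Cfd or Myl7, the log2 ratio of Gja5 turned from 1.20 to -0.28, that of Vwf went from 1.24 to 0.55 and that of Eln from 1.07 to 0.47. Of 13 elastic fibre genes, 4 were higher in vessel-type spots (Eln, Fbn1, Fbln5 and Mfap4), with Fbln5, fibulin 5, at 2.45 (1.85 to 3.27) and 1.64 (1.20 to 2.26).

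Set against the other spots, 4 of 15 measured genes of arteries and veins were higher in muscle-rich spots of both sections and 1, Bst1, was lower. Vwf was 3.10-fold higher in each section, Gja5 2.22-fold and 2.19-fold, and Eln 2.54-fold and 1.66-fold. Bmx, a kinase of arterial endothelium, was 4.67-fold and 3.16-fold higher. Pecam1, a gene of all endothelium, stood at 0.794 and 1.17 times the other spots. Of 3 measured lymphatic genes, Mmrn1 (3.17-fold and 3.61-fold) and Lyve1 (2.24-fold and 2.69-fold) were higher.

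**Figure D4:**
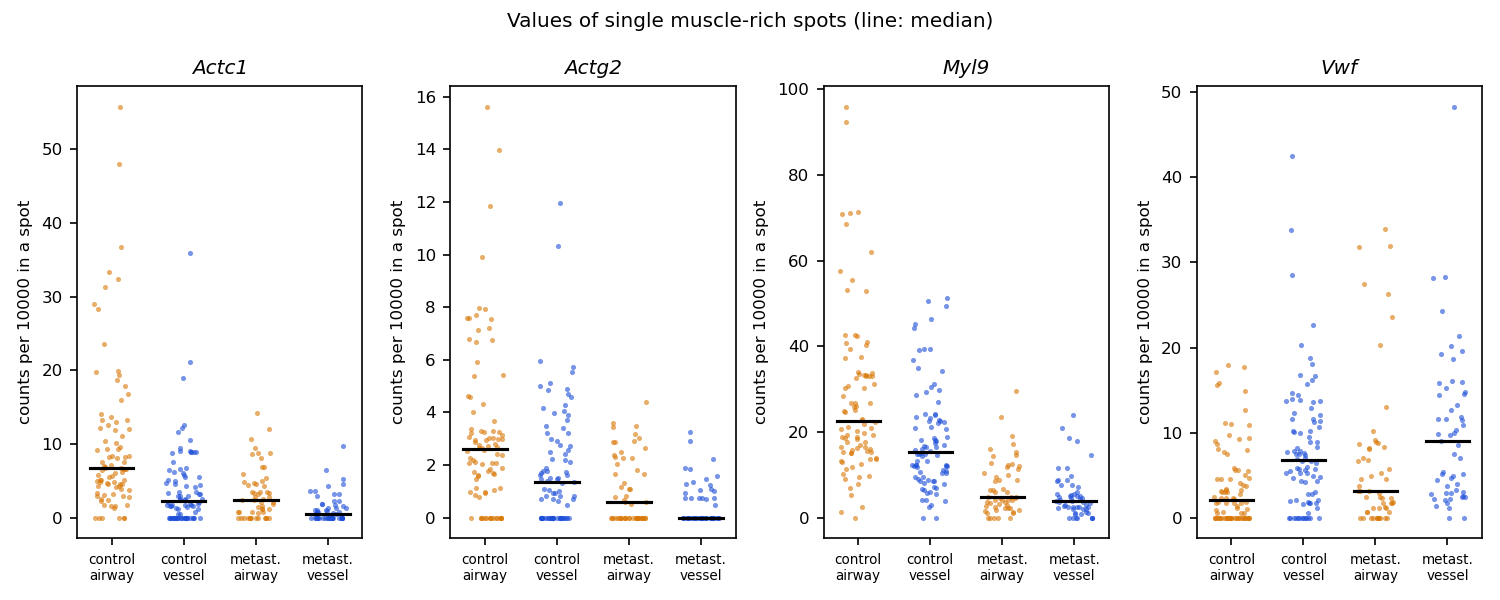
Counts per 10000 of Actc1, Actg2, Myl9 and Vwf in each single muscle-rich spot, by section and type, with the median as a line. The spots of both types overlap for all 4 genes, the medians of Actc1, Actg2 and Myl9 are higher in airway-type spots and that of Vwf in vessel-type spots.

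Genes of general endothelium and of the alveoli were also on the vessel-type side. All 6 general endothelial genes, 4 of 7 capillary, 5 of 7 type I, 5 of 9 type II and 4 of 7 alveolar fibroblast genes were higher there in both sections, with Ces1d of the last list higher in airway-type spots. Lyz1, a lysozyme gene, ranked first, with vessel-type over airway-type ratios of 3.08 (2.78 to 3.43) and 2.15 (1.92 to 2.42). Tcf21, a transcription factor of alveolar fibroblasts, had ratios of 3.30 and 2.10, Tek, the angiopoietin receptor, 2.62 and 2.06, and Pdpn, podoplanin of type I cells, 2.43 and 1.98. The other genes ranked highest were Pakap, Gng11, Tspan8, Cadm1, Cox4i2, Rasip1, Ushbp1 and Ndst1. Of 9 measured mural genes, 3 were higher in vessel-type spots (Higd1b, Cox4i2 and Gucy1b1) and none in airway-type spots. Cox4i2, a pericyte gene, had ratios of 2.24 and 2.01, and stood at 0.412 and 0.967 times the other spots. Of 8 measured regulators, only Mef2a, a transcription factor of muscle and other cells, was higher in vessel-type spots, with ratios of 3.33 (2.06 to 5.58) and 1.75 (1.13 to 2.75). Of 14 genes of TGF-beta, BMP and Notch signalling, 5 were higher there (Tgfb1, Bmpr2, Id1, Smad6 and Smad7) and none in airway-type spots. Vessel wall and alveolar tissue were not separated within the vessel-type spots.

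Between the sections, 7961 genes had at least 50 counts over the muscle-rich spots of both sections together, so a gene could pass through 1 section alone. In both spot types, 467 of them were higher in the metastatic section (5.87%) and 419 in the control section (5.26%). Of 21 measured contractile genes, 14 were higher in the control section and none in the metastatic section, with median log2 ratios of metastatic over control of -1.07 in airway-type and -0.96 in vessel-type spots, against 0.10 and 0.08 over all genes. Summed, the list stood at 0.502 of its control level in muscle-rich and 0.745 in other spots. Myl9 stood at 0.267 (0.240 to 0.298) in airway-type and 0.296 (0.260 to 0.337) in vessel-type spots, and at 0.512 in other spots. Des stood at 0.210 and 0.504, and Flna, the actin crosslinker filamin A, at 0.461 and 0.527. Cnn2 was on neither side, at 1.19 (0.960 to 1.48) and 1.17 (0.973 to 1.40).

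The 4 score genes together stood at 0.302 (0.286 to 0.318) of their control level in muscle-rich spots, and the part of the choice of spots in the ratios above was not tested. Per count of those genes, the metastatic over control ratio was 0.920 (0.847 to 0.998) for Myl9, 1.03 (0.808 to 1.29) for Actg2, 0.922 (0.815 to 1.04) for Des and 1.09 (0.948 to 1.24) for Actc1. Other contractile genes stood higher per count of the score genes, with Tpm2 at 1.21, Smtn at 1.39, Mylk at 1.41, Flna at 1.63, Tpm1 at 2.04, Myl6 at 2.11, Cald1 at 2.44, Ppp1r14a at 2.82 and Cnn2 at 3.92. The denominator is the sum of the genes that chose the spots. Cnn1 stood at 0.482 (0.414 to 0.558), beside 1.58 for Tagln and 1.12 for Acta2, which share the sum they are divided by. With 1 score threshold for both sections, the lowest control score, the 22 metastatic spots that passed had Myl9 at 0.599 (0.533 to 0.670), Tpm2 at 0.841, Actc1 at 0.808 and Cnn1 at 0.321 (0.259 to 0.395) of the control level. Cnn1 was the lowest of these 4, but unlike Myl9, Tpm2 and Actc1 it belongs to the score that set the threshold. It also stood at 0.274 (0.231 to 0.323) in other spots. With that threshold the log2 ratios of Tpm2 and Actc1 turned to 0.02 and 0.13 in vessel-type spots.

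**Figure D5:**
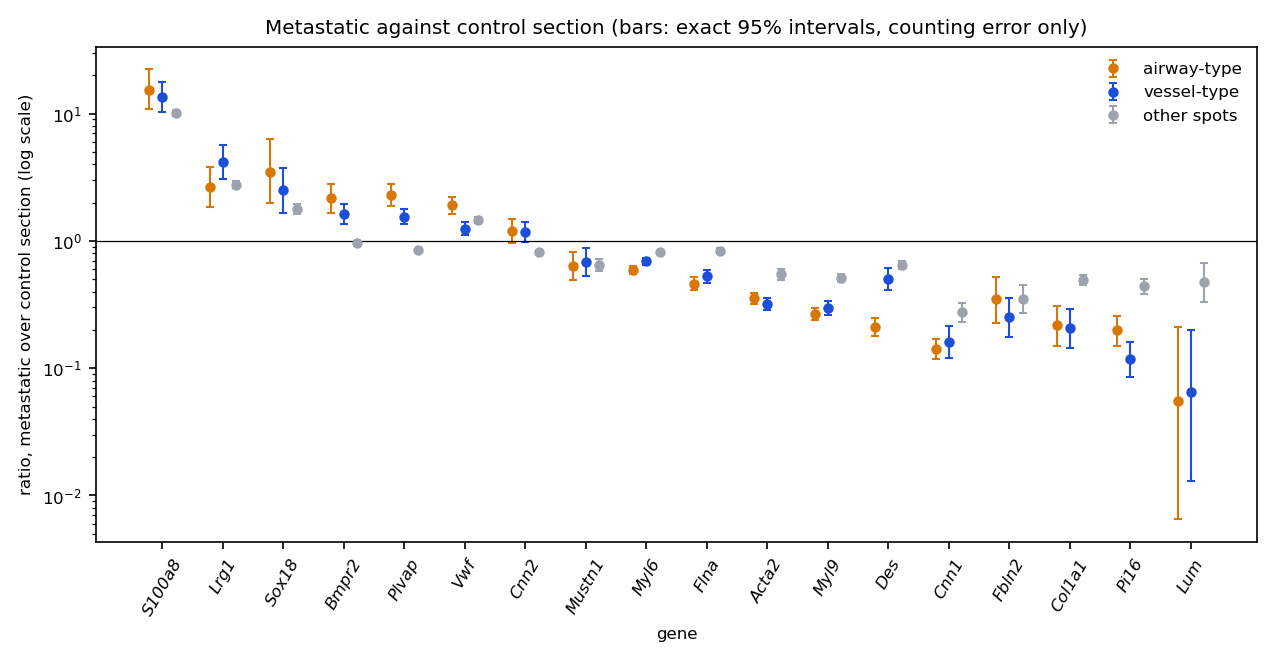
Ratio of the summed counts per 10000 of 18 genes in the metastatic over the control section (log scale) in airway-type, vessel-type and other spots, with exact 95% intervals as bars that cover counting error only. S100a8 lies above 10 in all 3 kinds of spots, Bmpr2 and Plvap lie above 1 in muscle-rich and below 1 in other spots, and Cnn1, Pi16, Col1a1 and Lum lie further below 1 in muscle-rich than in other spots.

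Genes of the sheath were on the control side. Of 23 matrix genes, 13 were higher in the control section in both spot types and none in the metastatic section, as were 6 of 14 elastic fibre genes and 8 of 12 adventitial genes, with Ly6a and Dpp4 higher in the metastatic section. Pi16 had a median level per spot of 5.07 (0 to 23.1) counts per 10000 in control airway-type and 5.68 (0 to 35.5) in control vessel-type spots, and of 0.827 (0 to 16.7) and 0 (0 to 4.93) in the metastatic section. Its metastatic over control ratio was 0.198 (0.149 to 0.258) in airway-type, 0.119 (0.0854 to 0.161) in vessel-type and 0.439 (0.384 to 0.5) in other spots. Col1a1, of collagen I, stood at 0.218 and 0.208 in the muscle-rich and 0.493 in other spots, and Col3a1, of collagen III, at 0.300 and 0.244 against 0.944. Both collagens and Pi16 were lower by a larger factor in muscle-rich than in other spots. With 1 score threshold the ratio was 0.158 (0.101 to 0.237) for Pi16, 0.275 (0.171 to 0.422) for Col1a1 and 0.334 (0.247 to 0.442) for Col3a1. Lum, lumican, stood at 0.0553 (0.00651 to 0.211) and 0.0655 (0.0131 to 0.201), on 5 metastatic counts.

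Neutrophil genes led the metastatic side, with 5 of 6 measured higher in both spot types (S100a8, S100a9, Retnlg, Csf3r and Ngp) and none lower. Over all 7961 genes, 5.87% were higher and 5.26% lower. Of the 6, only S100a8 and S100a9 had at least 50 counts in the muscle-rich spots of each section. Retnlg, Csf3r and Ngp passed only on the counts of both sections together, so the filter favoured their direction. S100a8, a calcium-binding protein of neutrophils, had a median level per spot of 0 (0 to 8.96) counts per 10000 in control airway-type and 0 (0 to 7.60) in control vessel-type spots, and of 4.54 (0 to 53.6) and 8.83 (0 to 47.0) in the metastatic section. Its ratio was 15.3 (10.8 to 22.2) and 13.4 (10.3 to 17.7), and 10.1 (9.53 to 10.6) in other spots, so the excess ran across the section. Its partner S100a9 stood at 14.1, 11.3 and 9.32. Ccl8, a chemokine, was 5.85-fold and 7.36-fold higher in muscle-rich and 50.7-fold in other spots. Il1b, interleukin 1 beta, was 5.69-fold and 5.65-fold higher, and Slpi, a secreted protease inhibitor, 9.53-fold and 2.93-fold. Wfdc17, Chil3 and the interferon-inducible Ifi204 were the others ranked highest besides Lrg1 and Sox18.

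Vessel genes, like most genes, were mostly on neither side. Over all 7961 genes, 5.87% were on the metastatic and 5.26% on the control side. Of 14 measured genes of arteries and veins, 1 was higher in the metastatic section (Slc6a2) and 1 in the control section (Selp), of 6 general endothelial genes none was on either side, and of 14 mural genes 2 were higher in the control section (Cspg4 and Kcnj8) and none in the metastatic section. Lrg1, a secreted glycoprotein made by endothelium and neutrophils, was 2.63-fold (1.83 to 3.81) higher in airway-type and 4.16-fold (3.07 to 5.71) in vessel-type spots, and 2.76-fold in other spots. Sox18, an endothelial transcription factor, was 3.47-fold, 2.49-fold and 1.79-fold higher in the same order. Of 8 measured capillary genes, 4 were higher (Gpihbp1, Plvap, Kit and Car4), with Plvap at 2.29 and 1.55 in muscle-rich and 0.844 in other spots. Of 21 genes of TGF-beta, BMP and Notch signalling, Bmpr2, Smad6 and Smad7 were higher and Tgfb3 was lower. Bmpr2, a BMP receptor, stood at 2.16 (1.67 to 2.82) and 1.63 (1.35 to 1.96), and at 0.956 in other spots. Smad6, an inhibitor of BMP signalling, stood at 4.01 (2.73 to 6.01) and 2.10 (1.65 to 2.68), and at 1.24 in other spots. Foxf1, Tbx4 and Tead1, 3 of 10 measured regulators, were higher too. Ager of the alveolar wall stood at 1.41 and 1.20 in the same spots and at 0.548 in other spots, and the part of alveolar RNA in these results was not tested.

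The control muscle-rich spots also held tissue that the metastatic ones held little of. In both spot types, all 7 measured cardiac genes and all 5 measured genes of goblet, basal and neuroendocrine cells were higher in the control section. So were 7 of 10 ciliated cell genes, against 5.26% over all 7961 genes. Myl7, Myh6 and Sln, among the 7 cardiac genes, also chose the cardiac spots that were left out. With at least 50 counts in each section, only 1 cardiac and no goblet, basal or neuroendocrine gene would have been measured. The counts of these lists therefore follow largely from the filter. The genes ranked furthest to the control side were Bpifa1, Myl7, Bpifb1, Myh6, Tff2, Myl4, Reg3g, Scgb3a1, Lum and Cox8b. Bpifa1 had 2055 of its 3572 control counts in muscle-rich spots (57.5%), of which 738 lay in the patch of 33 spots and 1294 in the patch of 9 spots, and it had 7 counts in the whole metastatic section. Cfd, adipsin of fat cells, had 1167 counts in control and 82 in metastatic muscle-rich spots, and 59 of the latter lay in 1 spot. With spots holding any Bpifa1, Muc5b, Cfd or Myl7 left out, 234 genes were higher in the metastatic and 214 in the control section.

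Few muscle-rich spots lay near tumour. Of 79 metastatic spots that passed the 99th percentile of control spots in a score of 4T1 and cell-cycle genes and touched another such spot, 1 was muscle-rich. Within 200 µm of them lay 9 of 110 muscle-rich spots (8.18%), against 219 of 1104 kept spots of the section (19.8%). The median distances were 755 and 700 µm. The kept spots include tumour spots, which count as near themselves and of which only 1 was muscle-rich. These shares are therefore not a comparison within lung outside tumour. Without the tumour spots and the muscle-rich spots near them, 430 genes were higher in the metastatic and 409 in the control section.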

How the data were processed

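Counts per gene and spot, as deposited by the authors in the filtered Visium matrices, were used. The submitters' processing notes name Space Ranger 1.3.1 and mm10. The muscle-rich spots and all gene lists were chosen with earlier results of these data known. Scoring and the Cyp2f2 division used counts per 10000 of all counts, and levels used a library size without 12 abundant genes. Counts were summed over the spots of a group. Poisson intervals (levels) and Clopper-Pearson intervals (ratios) were exact at 95%, and log2 ratios used a pseudocount of 0.5 on each sum. Genes needed at least 50 counts. Named genes were those of the score, the division and the lists, the 12 highest and 12 lowest between spot types, the 10 highest and 10 lowest between sections and the 10 highest over other spots, with at least 100 counts and the same direction in both sections or spot types, passing over clone names. No doublet caller applies to spots. Calculations were tested on simulated data. Python 3.11.15, numpy 2.4.6, scipy 1.17.1, pandas 2.3.3 and matplotlib 3.10.9 were used. In all, 21 alternative settings were run, 18 of them planned. The interferon response list is not reported here.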

Additional observations from a re-analysis of the deposited data

Results flagged for a closer look

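Dcn, decorin, moved in opposite directions between spot types in the sections. Its vessel-type over airway-type ratio was 1.33 (1.16 to 1.53) in the control and 0.548 (0.391 to 0.762) in the metastatic section, and the log2 ratios differed by 1.28. With 1 section per condition, the difference was not tested.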

How the results depend on the processing

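No paired analysis was possible because each condition had 1 section, so the groups shared only replicate number 1 and no replicate could be left out. Counts are given in the order vessel-type, airway-type, metastatic and control side and contractile genes over other spots, which were 260, 239, 467, 419 and 12. Fewer counts per gene limit every count. They were 495, 523, 770 and 677 with at least 20 counts per gene, 66, 48, 103, 158 and 7 with at least 200, 21, 115, 83 and 174 at 2-fold, and 26, 23, 76, 127 and 7 after thinning to 2000 counts per spot, which left fewer genes tested. With the top 5% of spots the first 3 were 144, 109 and 311, and with the top 20% the first pair was 414 and 411. When only the spots highest and lowest in Cyp2f2 were compared, 512 genes were higher in vessel-type spots. With all counts as library size the split was 1863 and 93. Of the alternatives chosen after seeing the data, 1 score threshold gave 83 and 47 for the spot types, and leaving out spots with Bpifa1, Muc5b, Cfd or Myl7 gave 79, 80, 234 and 214. In all, 70 of these counts stayed within 1.5 times and 32 did not.

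Of 1932 log2 values for 23 single genes, 63 changed sign. In 11 of these the value as reported was past 1.5-fold with an interval that left out 1, and in the other 52 it was not. With all counts, vessel-type over airway-type in the metastatic section became 0.04 for Tpm2 and 0.03 for Smtn, which are among the 11, and 0.15 for Myl9, 0.25 for Des, 0.15 for Pi16 and 0.59 for Flna, which are not. In the control section it became 0.05 for Mylk, 0.34 for Flna and 0.43 for Myl6, also not among the 11. The rest of the 11 follow. After thinning it became -0.03 for Cox4i2 and -0.12 for S100a8, and metastatic over control in airway-type spots became -0.68 for Pdpn. With 1 threshold, metastatic over control became 0.37 for Eln, 0.13 for Actc1 and 0.02 for Tpm2 in vessel-type and 0.00 for Smtn and 0.10 for Cytl1 in airway-type spots. Without Bpifa1, Muc5b, Cfd or Myl7 spots, Gja5 in the control section became -0.28. The cause was not tested.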
